A study of Homo sapiens with 4 samples.

Results

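The genes described here encode 10 transcription factors of the AP-1 and early response group, taken by symbol from a table of 56832 genes: FOS, FOSB, FOSL1, FOSL2, JUN, JUNB, JUND, EGR1, MAFF and MYC. All 10 were present in the table and all 10 passed the filter for testing, a mean normalised read count of at least 10 over the 4 libraries. RNA came from A375, an established human melanoma cell line labelled wild type, grown in DMEM with 10% serum. The vehicle group (2 libraries) received isopropanol and the octanoate group (2 libraries) received octanoate, a fatty acid of medium chain length, at 1 mM, each for 48 h. The groups therefore differ in the octanoate dose and share line, genotype, medium and time. All libraries come from 1 cell line and 1 time point, and the labels do not say whether the replicates were separate cultures. P-values measure the spread between libraries, which may be technical. With 2 libraries per group, limma p-values rest mostly on a variance pooled over genes of similar level, not on each gene's own replicates.

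AP-1 is a dimer of proteins with a basic leucine zipper, usually a FOS family member with a JUN family member, that binds short palindromic sites in promoters and enhancers. Early response genes are switched on within minutes of growth factor or stress signals, largely through the ERK, JNK and p38 kinases acting on SRF, ETS and CREB type factors, and most of their transcripts are short-lived. In melanoma cells with an activated RAF-MEK-ERK pathway, FOSL1 in particular is a long-lasting output of that pathway. The stated aim of the study was to find genes and signatures raised by the fatty acid, and the comparison below asks how this group of factors stood after prolonged exposure.

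After octanoate, 7 of the 10 genes rose: JUN, EGR1, FOSL1, MYC, FOSL2, MAFF and JUNB. JUN rose most, 2.60-fold, followed by EGR1 at 2.10-fold and FOSL1 at 2.05-fold. FOS and FOSB, the classical early members, did not pass the test. JUND passed it as lower, but its groups overlapped and its call was lost in several alternatives given below. A gene was called at a limma adjusted p (Benjamini-Hochberg over 20250 tested genes) under 0.05. By that rule 16.2% of all tested genes were higher and 13.7% lower, against 7 and 1 of these 10, and 29.9% were called in either direction, against 8 of these 10. In another fit, each library was corrected for trends with GC content and the length of a gene's merged exons. Of the 15141 tested genes found in GENCODE 29, 2864 were then called higher and 4015 lower. The same genes without the correction gave 2866 and 2575. The calls among these factors numbered 7 and 1 with the correction and without it. The median log2 difference of the 10 genes was 0.55, and that of all tested genes was 0.01. In bulk RNA, a change in the number of cells expressing a gene and a change in RNA per cell cannot be told apart.

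**Figure D1:**
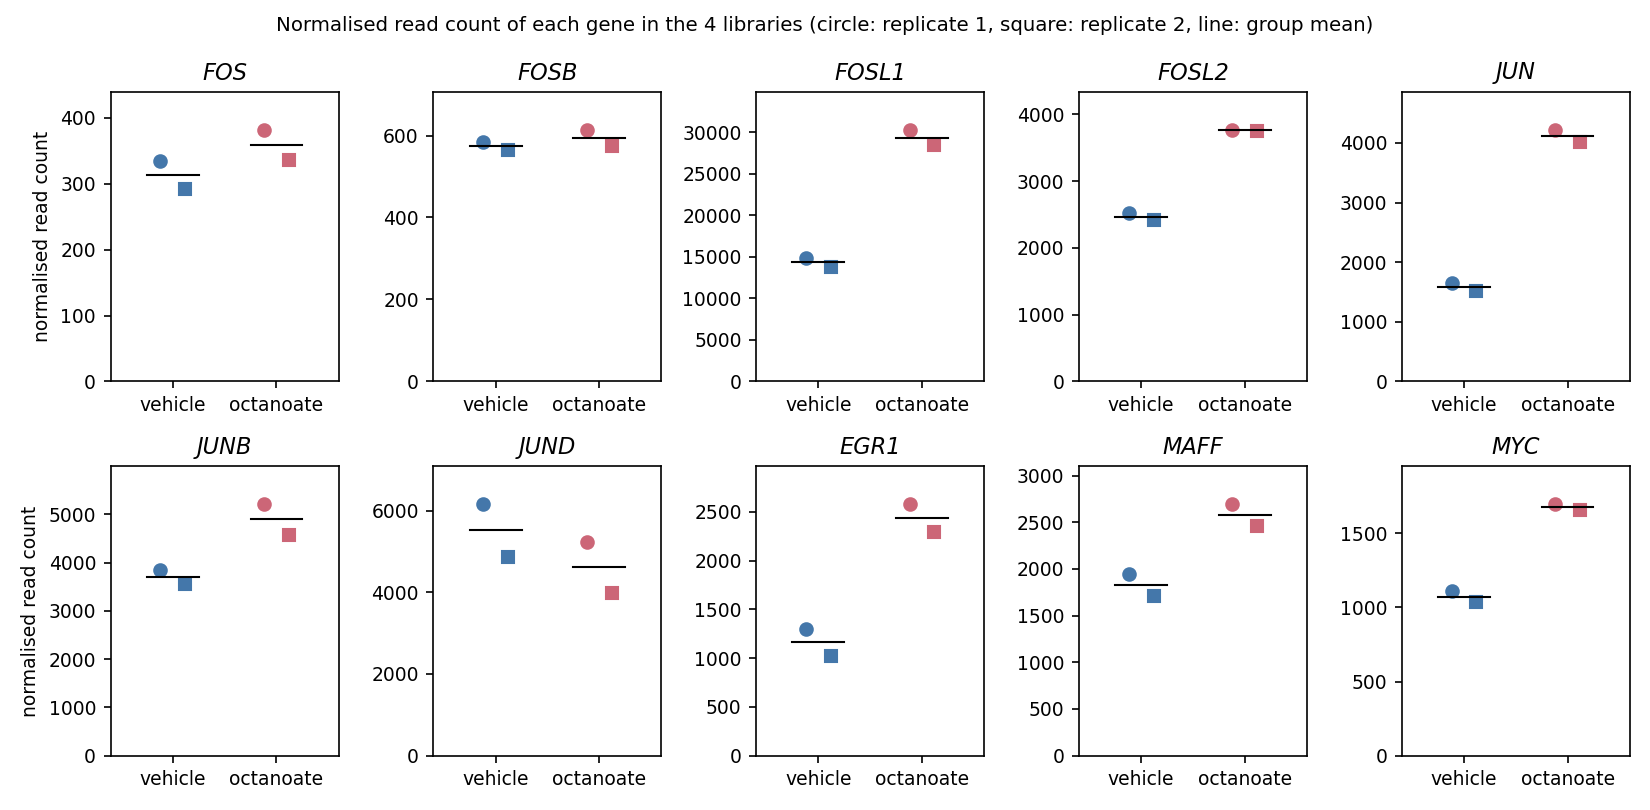
Normalised read count (vertical axis, from 0, scaled to each gene) of the 10 genes in the 4 libraries, with circles for replicate 1, squares for replicate 2 and a line at each group mean. Both octanoate libraries lie above both vehicle libraries for 8 genes, while the groups overlap for FOSB and JUND.

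The FOS family was dominated by FOSL1, which encodes FRA-1. Its normalised read count was 14891 and 13803 in vehicle and 30295 and 28410 in octanoate. Both octanoate libraries thus held about the same level, far above both vehicle libraries, whose replicates differed little. The group means were 14347 ± 769 and 29353 ± 1333 (SD, n = 2 per group), for a limma estimate of 1.03 in log2 units (SE 0.06, adjusted p 1.88e-12). Between 14247 and 31474 reads stood behind each of these values. FOSL1 lies on chromosome 11 on the minus strand (GRCh38, 65892049 to 65900573, GENCODE 29), with 4 exon blocks. One of its transcripts shares 412 bases at 96.4% identity with the pseudogene FOSL1P1, so a part of its count is uncertain.

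FOSL2, which encodes FRA-2, followed FOSL1 at a lower level. Its normalised read count was 2519 and 2414 in vehicle and 3770 and 3751 in octanoate. The replicates of each group lay close together and the groups were well apart. The estimated log2 difference was 0.61 (limma SE 0.06, adjusted p 3.81e-08), a 1.52-fold change. In GENCODE 29, FOSL2 lies on chromosome 2, plus strand, from 28392448 to 28417312, and no exon of another gene overlaps its exons.

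FOS, which encodes c-FOS, the founding member of the family, had normalised read counts of 335 and 293 in vehicle and 382 and 336 in octanoate. The lower octanoate library was almost level with the higher vehicle library. Limma put the log2 difference at 0.19 (95% confidence interval -0.04 to 0.43, adjusted p 0.205), so an increase of the size seen for FOSL1 or FOSL2 lies outside the interval. Of all tested genes, 32.6% had both octanoate libraries above both vehicle libraries, as FOS did, and 30.5% had both below, against 8 and 0 of these 10 genes. FOS rested on 302 to 397 reads per library, the fewest of the 10 genes.

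FOSB had normalised read counts of 584 and 564 in vehicle and 614 and 574 in octanoate. The octanoate library with the lower value lay within the vehicle range. The estimated log2 difference was 0.05 (95% confidence interval -0.13 to 0.23, limma adjusted p 0.728), less than the spread between replicates. FOS is on chromosome 14 (75278774 to 75282230, plus strand) and FOSB on chromosome 19 (45467995 to 45475179, plus strand), and neither shares exon bases with another gene in GENCODE 29.

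Among the JUN family, JUN, which encodes c-JUN, had the largest change of all 10 genes. Its normalised read count was 1648 and 1514 in vehicle and 4221 and 4015 in octanoate. Each octanoate library held well over the level of either vehicle library, and the replicates lay close together. The group means were 1581 ± 94.6 and 4118 ± 145 (SD, n = 2 per group), for a limma estimate of 1.38 in log2 units (SE 0.07, adjusted p 5.34e-14). In the order of log2 differences from the top, JUN was number 240 of 20250 tested genes, EGR1 number 521 and FOSL1 number 580. JUN is a gene of 1 exon on chromosome 1 (58780788 to 58784327, minus strand).

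JUNB, often a brake on JUN activity and in other settings an activator, rose less. Its normalised read count was 3847 and 3552 in vehicle and 5215 and 4580 in octanoate. The octanoate libraries differed from each other more than the vehicle libraries did, and the groups did not overlap. Limma put the log2 difference at 0.40 (SE 0.07, adjusted p 5.16e-05). With a variance prior that has no intensity trend the limma adjusted p was 0.103, and with no filter on low counts it was 0.05004. JUNB lies on chromosome 19 (12791496 to 12793315, plus strand) in 1 exon, 259 bases of which are shared with exons of HOOK2 on the opposite strand, so a part of its count is uncertain. HOOK2 was not called, with a log2 difference of 0.10 (limma adjusted p 0.364).

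JUND, the JUN family member known for steady expression in resting cells, had normalised read counts of 6160 and 4870 in vehicle and 5240 and 3982 in octanoate. Vehicle 2 lay below octanoate 1, so the groups overlapped, and within each group replicate 1 lay well above replicate 2. The estimated log2 difference was -0.26 (limma SE 0.10, adjusted p 0.0414). Without vehicle 1 it was -0.09 and without octanoate 2 it was -0.06. Leaving out vehicle 2 gave -0.43 and leaving out octanoate 1 gave -0.46, so the size depended on single libraries. On whole reads recovered from the table, the adjusted p of JUND was 0.0586 with edgeR and 0.546 with DESeq2, so neither called it. JUND has the highest GC content of the 10 genes, 69.7% in its longest transcript, and lies on chromosome 19 (18279760 to 18281622, minus strand). In the highest of 10 bins of tested genes ordered by GC content, the median log2 difference of replicate 1 from replicate 2 was 0.11 in both groups. For JUND it was 0.34 in vehicle and 0.40 in octanoate. The part of GC content in the JUND result was not tested beyond the fit with GC and length trends removed, where its log2 difference was -0.38 (limma adjusted p 0.00023).

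**Figure D2:**
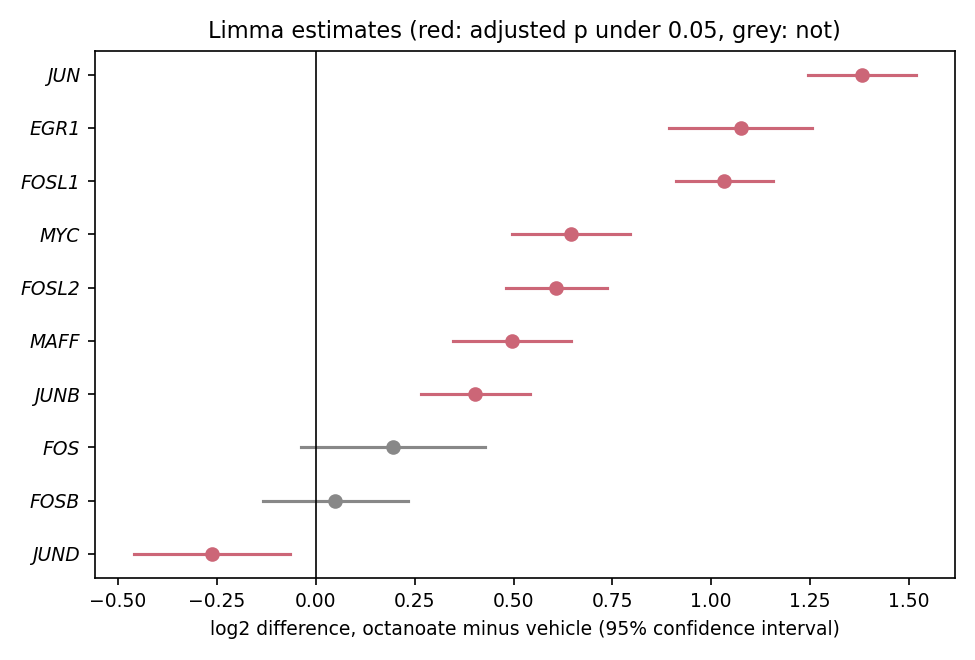
Log2 difference between octanoate and vehicle for each gene from limma (horizontal axis), with 95% confidence intervals, in red for an adjusted p under 0.05 and in grey otherwise. JUN stands highest at 1.38, FOS and FOSB have intervals that include 0, and JUND is the gene below 0.

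EGR1 is a zinc finger factor whose gene responds to ERK and SRF signalling among other inputs, and signalling was not measured here. Its normalised read count was 1301 and 1026 in vehicle and 2581 and 2296 in octanoate. Both octanoate libraries were far above both vehicle libraries, although the vehicle libraries differed from each other more than for most of these genes. Limma put the log2 difference at 1.07 (SE 0.09, adjusted p 9.90e-10). A change of at least 2-fold was called for JUN, EGR1 and FOSL1, 3 of 10 genes, where 2.67% of all tested genes were called that far higher. EGR1 lies on chromosome 5 (138465490 to 138469315, plus strand) and no annotated exon of another gene overlaps it.

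MAFF is a small MAF protein, which has a leucine zipper and no activation domain and pairs with other zipper proteins. Its normalised read count was 1948 and 1711 in vehicle and 2695 and 2463 in octanoate. The groups were separated by more than the distance between replicates. The estimated log2 difference was 0.50 (limma SE 0.07, adjusted p 9.48e-06), and without an intensity trend in the variance prior the limma adjusted p was 0.0778. MAFF lies on chromosome 22 (38200767 to 38216511, plus strand), within GENCODE 29 bounds that overlap PLA2G6 on the opposite strand without shared exon bases.

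MYC, the growth-promoting factor whose transcript is also an early response to mitogens, had normalised read counts of 1112 and 1034 in vehicle and 1698 and 1660 in octanoate. Replicates were close together in both groups and the groups were well apart. Limma put the log2 difference at 0.65 (SE 0.07, adjusted p 1.94e-07), a 1.56-fold change.

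In the authors' deposited table of the same comparison, the same 7 genes had an adjusted p under 0.05 and were higher. The log2 fold change of JUN was 1.38 in the authors' deposited table, that of EGR1 1.07 and that of FOSL1 1.03. JUND was not called in the authors' deposited table, where its log2 fold change of -0.26 had a standard error of 0.26 (adjusted p 0.536). FOS and FOSB were not called in the authors' deposited table either (adjusted p 0.470 and 0.849).

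The sequences just upstream of the transcription start are shown for 3 genes with different outcomes: EGR1, with a large rise, JUNB, with a small one, and JUND, with no rise. RefSeq entries (GRCh38.p14) existed for 8 of the 10 genes. Each line gives 250 bases that end right before the RefSeq start, 5′ to 3′ on the gene's strand, with CArG boxes (the SRF site, searched by its name), CRE sites (TGACGTCA) and TATA boxes (TATAAA) in capitals.
EGR1: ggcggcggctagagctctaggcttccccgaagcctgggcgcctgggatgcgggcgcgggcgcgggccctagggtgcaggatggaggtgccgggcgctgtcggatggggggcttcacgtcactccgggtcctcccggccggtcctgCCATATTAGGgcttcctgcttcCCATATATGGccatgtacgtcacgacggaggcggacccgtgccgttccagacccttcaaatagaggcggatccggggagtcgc
JUNB: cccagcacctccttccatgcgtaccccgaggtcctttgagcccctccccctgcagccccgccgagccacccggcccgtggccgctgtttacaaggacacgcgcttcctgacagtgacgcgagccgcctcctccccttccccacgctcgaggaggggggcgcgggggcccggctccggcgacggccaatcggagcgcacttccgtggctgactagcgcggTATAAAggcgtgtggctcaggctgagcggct
JUND: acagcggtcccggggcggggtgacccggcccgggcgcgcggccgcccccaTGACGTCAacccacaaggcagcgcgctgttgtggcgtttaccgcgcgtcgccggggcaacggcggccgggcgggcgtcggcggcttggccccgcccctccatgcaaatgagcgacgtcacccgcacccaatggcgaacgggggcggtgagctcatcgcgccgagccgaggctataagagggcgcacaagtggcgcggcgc
These windows are chr5:138465229-138465478 (plus strand), chr19:12791236-12791485 (plus strand) and chr19:18281623-18281872 (minus strand). EGR1 holds 2 CArG boxes, which are found in 1.16% of 35116 RefSeq promoter windows of this length. JUNB holds a TATA box, found in 10.7% of windows, and the windows of FOS and FOSB, which were not called, hold one too. JUND holds a CRE, found in 1.65% of windows, and so does 1 of the windows of MAFF, which rose. None of the windows of these 8 genes holds the AP-1 site TGANTCA, found in 6.57% of all windows, or the EGR1 site GCGTGGGCG, found in 0.720%. Both strands were searched for these patterns only, so variant forms of a site, the AP-1 site among them, were not counted. Matches are descriptions of these letters only and do not show binding, and more distant sites lie outside the windows.

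Levels of different genes were compared per kilobase of exon in GENCODE 29, because normalised counts carry no length correction. Each length merged the exons of all annotated transcripts, 1 for JUN and JUNB, 10 for FOS and 13 for FOSB. The transcripts present here may be shorter, so levels and family shares of genes with many transcripts may be understated. FOSL1 held 7603 ± 408 normalised counts per kb under vehicle and 15555 ± 706 under octanoate (SD, n = 2 per group). Its mean level per kb was above that of 98.7% of the 15141 tested genes found in GENCODE 29. In vehicle the order below FOSL1 was JUND (2960 per kb), JUNB (2033), JUN (447), EGR1 (371), MYC (358), FOSL2 (345), MAFF (326), FOSB (103) and FOS (96.9). The vehicle libraries of EGR1 overlapped those of MYC, FOSL2 and MAFF, and those of FOSB overlapped those of FOS, so these neighbours did not differ in level beyond their spread. In octanoate JUNB stood at 2691 per kb and JUND at 2475 per kb, with overlapping libraries, and JUN had reached 1163 per kb. FOS and FOSB remained lowest, at 111 and 107 per kb.

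The FOS family as a sum held 8452 and 7844 normalised counts per kb in vehicle and 16810 and 15787 in octanoate. FOSL1 made up 93.4% and 93.3% of that sum in vehicle and 95.5% and 95.4% in octanoate. The shares of the other FOS family genes were smaller in both octanoate libraries than in either vehicle library, including FOSL2, whose own level rose. FOSL2 went from a mean of 4.23% to 3.23% of the sum, FOSB from 1.27% to 0.657% and FOS from 1.19% to 0.680%.

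The JUN family changed more in its make-up than in its sum. Its sum per kb was 5886 and 4994 in vehicle and 6870 and 5788 in octanoate, with overlapping groups. JUN made up 7.91% and 8.57% of the sum in vehicle and 17.4% and 19.6% in octanoate. JUND made up 56.2% and 52.4% in vehicle and 40.9% and 36.9% in octanoate, and JUNB 35.9% and 39.1% in vehicle and 41.7% and 43.5% in octanoate. The groups did not overlap in any of these shares. The ratio of the FOS family sum to the JUN family sum was 1.44 and 1.57 in vehicle and 2.45 and 2.73 in octanoate. With 2 libraries per group, the smallest two-sided p of an exact permutation test on a single sum or share is 0.333, so these values are descriptive. They are RNA levels and give no measure of protein or of dimers.

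**Figure D3:**
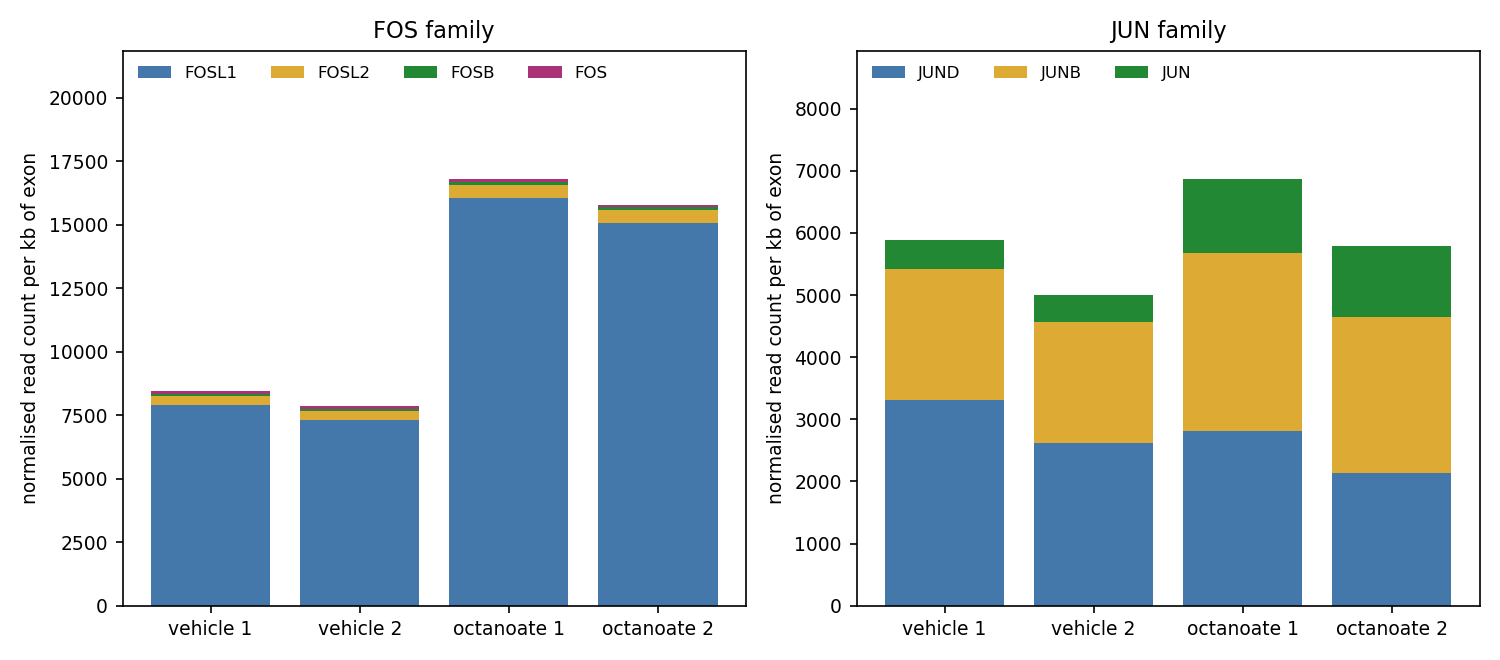
Normalised read count per kb of exon (vertical axis, from 0) of the FOS family (left) and JUN family (right), stacked by gene, in each of the 4 libraries. FOSL1 fills nearly the whole FOS family bar, at 93.3% or more in every library, and the JUN segment is larger in both octanoate libraries than in either vehicle library.

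Factors that share the basic leucine zipper or pair with AP-1 proteins were mostly called higher too. Of 15 such genes, 14 were tested, 8 were called higher, 1 lower and 5 were not called, with a median log2 difference of 0.33. Among all tested genes, 16.2% were called higher and 13.7% lower. ATF3, a stress-induced partner of JUN proteins, rose from 353 ± 27.4 to 846 ± 18.5 normalised counts (SD, n = 2 per group), for a limma estimate of 1.26 in log2 units (SE 0.09, adjusted p 1.67e-10). BATF3 rose by 1.11 (limma adjusted p 4.27e-07) and MAFK, a small MAF protein like MAFF, by 0.98 (limma adjusted p 2.89e-11) in log2 units. The large MAF factor MAF fell by 0.62 in log2 units (limma adjusted p 1.18e-06). Without an intensity trend 3 genes of this list were called higher, and 5 with no filter on low counts. Over all tested genes, those fits called 1095 of 20250 and 1597 of 43449 higher.

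Other genes of the early response class were also mostly called higher. Of 28 listed, 26 were tested, 18 were called higher, 2 lower and 6 were not called, with a median log2 difference of 0.33. The shares over all tested genes were 16.2% higher and 13.7% lower. KLF4, a zinc finger factor, rose from 1730 ± 97.3 to 3786 ± 217 normalised counts (SD, n = 2 per group), for a limma estimate of 1.13 in log2 units (adjusted p 3.27e-12). The orphan nuclear receptor gene NR4A1 rose by 1.04 (limma adjusted p 4.53e-12) and the stress gene GADD45A by 0.78 (limma adjusted p 3.53e-10) in log2 units. KLF2 fell by 0.60 (limma adjusted p 0.00477) and IER3 fell by 0.23 (limma adjusted p 0.00440) in log2 units. Without an intensity trend 4 genes of this list were called higher, and so were 1095 of all 20250 tested genes. The 2 calls of lower genes were both lost without vehicle 1 or without octanoate 2, and 4 genes were called lower with GC and length trends removed.

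Genes known as AP-1 targets in other systems, among them proteases, cytokines and adhesion molecules, were tested in 22 of 24 cases. Of these, 16 were called higher, 2 lower and 4 were not called, with a median log2 difference of 0.56. All tested genes together had 16.2% called higher and 13.7% lower. The cytokine gene IL11 had 1135 and 1090 normalised counts in vehicle and 6318 and 5671 in octanoate, for a limma estimate of 2.43 in log2 units (SE 0.07, adjusted p 2.10e-18). The integrin gene ITGA2 rose by 1.82 in log2 units (limma adjusted p 4.36e-17). SPP1, which encodes osteopontin, fell by 0.86 in log2 units (limma adjusted p 2.49e-08). These genes answer to many other factors as well, and whether AP-1 acts on them here was not measured. Between 11 and 16 of the list were called higher in every alternative, and the number called lower was 1 without vehicle 1 and 1 without octanoate 1.

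Of the kinases and factors that lie upstream, 30 were tested, 8 were called higher, 2 lower and 20 were not called, with a median log2 difference of 0.01. The share called in either direction, 33.3%, was near that of all tested genes (29.9%), but most calls in this list were higher. Over all tested genes, 16.2% were called higher and 13.7% lower. The transcription factor gene ETS1 rose by 0.44 (limma adjusted p 2.11e-06), the p38 kinase activator MAP2K3 by 0.39 (limma adjusted p 5.54e-05) and the ERK kinase MAP2K1 by 0.26 (limma adjusted p 0.00133) in log2 units. MAP2K6, another activator of p38, fell by 0.82 (limma adjusted p 2.35e-09), and NRAS fell by 0.24 (limma adjusted p 0.0019). SRF had 4264 normalised counts in vehicle and 4268 in octanoate, for a limma estimate of 0.0018 in log2 units (adjusted p 0.989), and was chosen after its values were seen. The count of higher genes in this list was 4 without vehicle 2, 5 without octanoate 1 and 4 without octanoate 2. It was 1 with no filter and 0 without an intensity trend, where the whole table had 1597 of 43449 and 1095 of 20250 higher. The count of lower genes in this list was 1 without an intensity trend, 5 with the replicate block and 6 with GC and length trends removed. In the last of these fits 7 of the list were higher. Over all tested genes, these fits called 530 of 20250, 4069 of 20250 and 4015 of 15141 lower. Kinase activity is not read by RNA.

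The partners and antagonists of MYC, and the genes it is known to activate, were called in both directions. Of 13 tested network genes, 2 were called higher, 3 lower and 8 were not called, with a median log2 difference of -0.02. In comparison, 16.2% of all tested genes were called higher and 13.7% lower. MXI1, which competes with MYC for its partner MAX, rose by 0.31 (limma adjusted p 0.000522), while its relatives MXD3 and MXD4 fell by 0.44 (limma adjusted p 0.000113) and fell by 0.39 (limma adjusted p 0.000178) in log2 units. PVT1 rose by 0.34 (limma adjusted p 0.0125), and MLXIP, which encodes MondoA, fell by 0.21 (limma adjusted p 0.0106). Of 22 known MYC target genes, 2 were called higher, 5 lower and 15 were not called, with a median log2 difference of -0.09. The share called in either direction, 31.8%, was near that of all tested genes (29.9%), but more of these target genes were lower than higher. ODC1, the rate-limiting enzyme of polyamine synthesis, went from 6353 and 5768 to 15747 and 15250 normalised counts, for a limma estimate of 1.36 in log2 units (SE 0.06, adjusted p 1.27e-14). TERT rose by 0.33 (limma adjusted p 0.0351). SRM fell by 0.22 (limma adjusted p 0.0154), CDK4 fell by 0.20 (limma adjusted p 0.0114) and LDHA fell by 0.19 (limma adjusted p 0.0276). The count of lower MYC target genes depended on single libraries: it was 0 without vehicle 1, 0 without octanoate 2 and 3 without octanoate 1. It was 2 with TMM scaling, 10 with the replicate block and 11 with GC and length trends removed. Over all tested genes, those fits called 2420 of 20253, 4069 of 20250 and 4015 of 15141 lower, against 2777 of 20250 in the main fit. That whole-table count also fell with vehicle 1 or octanoate 2 left out, as given below. The count of higher network genes was 1 without vehicle 1 and 1 without octanoate 1, and that of higher MYC target genes was 1 without vehicle 2 and 1 without octanoate 1.

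**Figure D4:**
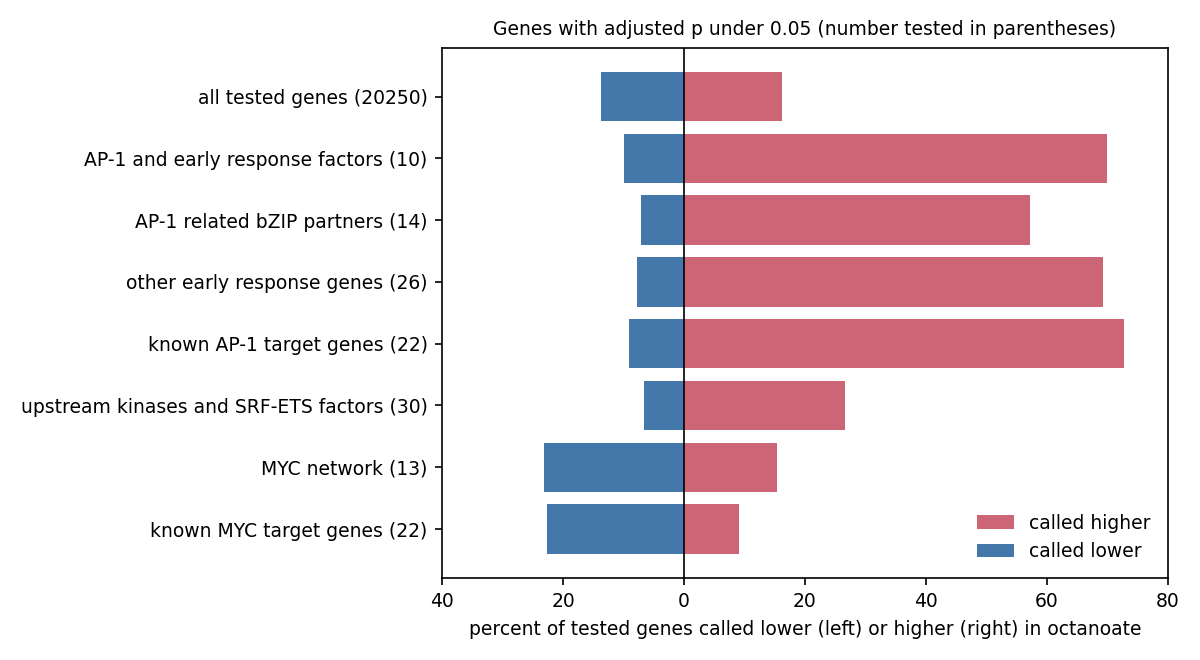
Percent of tested genes in each list called lower (left, blue) or higher (right, red) in octanoate at a limma adjusted p under 0.05, with the number tested in parentheses. The AP-1 and early response factors, their relatives and the known AP-1 target genes reach far further right than all tested genes (16.2% higher, 13.7% lower). The upstream kinases and factors and the MYC target genes are called in either direction about as often as all tested genes (33.3% and 31.8%, against 29.9%). Calls are mostly higher in the upstream list and mostly lower in the MYC target list. All lists were chosen with earlier results of these data known.

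Of the 28 genes that the naming rule selected from these lists, 12 overlap an exon of another gene or share sequence with one in GENCODE 29, so their counts are uncertain: MAFK, NR4A1, IER3, MAP2K3, MAP2K1, IL11, PVT1, MXI1, MXD3, MXD4, CDK4 and LDHA. Reads per library recovered from the table numbered 67785956 to 78005035. Of the melanoma and melanocyte markers, SOX10 had 41363 and 37790 normalised counts in vehicle and 39112 and 34072 in octanoate and was not called (limma adjusted p 0.209). MITF, the melanocyte master regulator, fell from 3533 and 3330 to 2414 and 2511, or by 0.48 in log2 units (limma adjusted p 2.33e-06). S100B fell by 1.12 (limma adjusted p 9.15e-12), while CSPG4 rose by 0.42 (limma adjusted p 1.47e-05), PMEL by 0.55 (limma adjusted p 0.0289) and MCAM by 0.19 (limma adjusted p 0.0184). PMEL was low, at 65.8 and 65.9 normalised counts in vehicle and 98.2 and 95.4 in octanoate. The pigment genes MLANA (34.9 to 52.0) and TYR (1.93 to 3.93) were close to absent. Of 9 markers tested in this list, 3 were called higher and 2 lower, against 16.2% and 13.7% of all tested genes. The 10 genes summed to 109610 and 119853 in vehicle and to between 121988 and 131253 in octanoate. Among 5 keratinocyte markers KRT1 was at 0, and DSG3 had at most 0.982 normalised counts. KRT14 fell by 2.08 in log2 units (limma adjusted p 2.40e-13). KRT10 had 5580 and 4723 normalised counts in vehicle and 6173 and 4566 in octanoate, and was not called (limma adjusted p 0.746). It made up most of the sum of its list. The keratinocyte list summed to between 5674 and 6704 in vehicle and between 4787 and 6441 in octanoate, and the fibroblast list (6 genes) to between 1333 and 1352 and between 1128 and 1153. COL1A1 fell by 0.69 (limma adjusted p 3.63e-05) and COL1A2 fell by 0.99 (limma adjusted p 0.0394) in log2 units. LUM had 519 and 512 normalised counts in vehicle and 547 and 507 in octanoate, and was not called (limma adjusted p 0.840). The 5 immune markers summed to between 600 and 670 and between 725 and 777. Nearly all of that sum was LYZ, which rose from 604 ± 43.5 to 724 ± 34.7 (SD, n = 2 per group), or by 0.26 in log2 units (limma adjusted p 0.0273). Among the called markers, LYZ, VWF, KRT14, CSPG4, MCAM and PMEL share exon bases or sequence with other genes in GENCODE 29, so their counts are uncertain. PTPRC was at 10.8 at most in vehicle and 7.59 at most in octanoate. The 4 endothelial markers summed to between 576 and 580 and between 787 and 792. PECAM1 rose 1.94-fold (limma adjusted p 1.05e-05) and VWF by 0.50 in log2 units (limma adjusted p 0.0479). KDR made up most of that sum, at 373 and 376 in vehicle and 445 and 449 in octanoate, and was not called (limma adjusted p 0.0542). The markers named in this paragraph were chosen after their values were seen, and they include all that were called. The part of these shifts in the results above was not tested.

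The plot of estimates under each alternative summarises how firmly each gene stood. JUN, EGR1, FOSL1, FOSL2 and MYC were called higher in all 16 alternatives. JUN ranged from 1.32 to 1.44 on the log2 scale and FOSL1 from 0.95 to 1.09. EGR1 had the widest range of these 5, from 0.90 to 1.25. Each of the 5 had its highest adjusted p in limma without an intensity trend. That limma adjusted p was 0.0185 for JUN, 0.0246 for FOSL1, 0.0310 for FOSL2, 0.0336 for MYC and 0.0464 for EGR1. JUNB was called in 14 of 16 alternatives, MAFF in 15 and JUND in 10. FOS and FOSB were called in none of the 16, with log2 differences from 0.10 to 0.29 and from -0.0061 to 0.10.

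**Figure D5:**
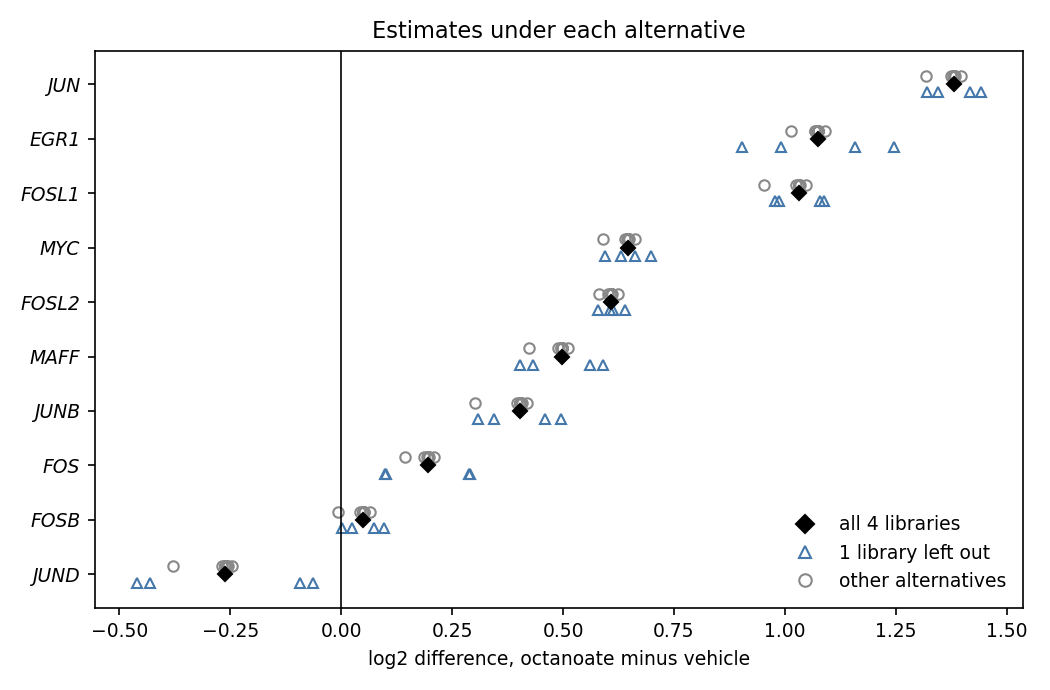
Log2 difference (horizontal axis) of each gene with all 4 libraries (diamonds), with 1 library left out (triangles) and under the other alternatives (circles). JUND and EGR1 spread most when a library is left out, and the circles of each gene lie close to its diamond apart from 1 that is lower for every gene, the fit with GC and length trends removed.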

How the data were processed

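Per the submitters' processing notes, the tools named were bcl2fastq 2.17, Trim Galore, STAR 2.4, Picard, HTSeq 0.9.1 and DESeq2, with build hg38. The annotation and the use of strand in counting are not given in the sources used here. The deposited signal is a read count per gene divided by 1 size factor per library, per the file name and the values. All positive values were whole multiples of the library's smallest value (tolerance 1e-06), so whole reads were recovered for edgeR 4.0.16 and DESeq2 1.42.0 as alternatives. The authors' deposited table holds a mean signal per gene, the log2 fold change of octanoate over vehicle and its error. The authors' table also holds a score (the test statistic of DESeq2, per its file name) and p-values with and without adjustment.

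The values as deposited were tested in R 4.3.3 with limma 3.58.1. The fit used log2(value + 1) and a variance prior with an intensity trend, over 20250 genes with a mean of at least 10 (two-sided, Benjamini-Hochberg, called under 0.05). This scale understates changes of low genes. The fit was tested on simulated data. Alternatives were other pseudocounts, filters and scalings, no trend, a replicate block, each library left out, edgeR and DESeq2. Fits on GENCODE 29 genes, with and without GC and length correction, were chosen after seeing the data. GENCODE 29 (GRCh38) gave positions, lengths and overlaps, and blastn 2.17.0 shared sequence (at least 95% identity over 100 bases).

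The genes described and the lists were chosen with earlier results of these data known. Beyond the 10 factors, up to 3 called genes per direction with the largest change and a mean of at least 100 were selected per list, and 1 of them is not reported here. Replicates of a group varied beyond sampling noise (chi-square per degree of freedom 4.77 for vehicle and 6.50 for octanoate) and were kept as separate libraries.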

Additional observations from a re-analysis of the deposited data

How the results depend on the processing

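The rises of JUN, EGR1, FOSL1, FOSL2 and MYC kept their direction and their side of the threshold in all 16 alternatives, and the number of genes called higher was 5 to 7. The number called lower, 1 (JUND), was 0 with no filter, 0 without an intensity trend, 0 with edgeR and 0 with DESeq2. With 1 library left out it ranged from 0 to 1. FOSB reversed to -0.0061 with GC content and length trends removed (limma adjusted p 0.955). Without an intensity trend 1095 genes of the whole table were called higher and 530 lower, and with no filter 1597 and 998. The number called lower over the whole table was 1600 without vehicle 1 and 1826 without octanoate 2. The causes of these shifts were not tested.

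What a replicate number stands for is not stated, and 2 pairs are too few to learn it from the data. Across the tested genes, the differences between replicates 1 and 2 had a Pearson r of 0.126 between the groups. With the number as a replicate block, 7 of the factors were called higher and 1 lower, and over all genes 4307 and 4069. The JUND log2 difference of -0.26 then had a limma adjusted p of 4.92e-07. With 2 libraries per group, each fit that leaves 1 out assumes that the lone library varies like the other group.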

Other observations

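All 10 factors had a higher normalised count in replicate 1 than in replicate 2 in both groups, a pattern held by 39.9% of all tested genes. The log2 difference between the replicates was 0.34 in vehicle and 0.17 in octanoate for EGR1, and 0.19 in both for FOS. It was smallest for FOSL2 in octanoate, 0.01, and for FOSB in vehicle, 0.05. With the tested genes ordered by GC content in 10 bins, the median of this difference in vehicle was -0.03 in the lowest bin and 0.11 in the highest, and in octanoate -0.01 and 0.11. JUND, JUNB and MAFF, with 69.7%, 64.9% and 61.9% GC, belong to the highest bin, which starts at 61.6%.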
